A study of Rattus norvegicus with 12 samples.

Results

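The volume-overloaded left ventricle (VO LV) of neonatal rats was set beside the unloaded right ventricle (sham RV), to ask which genes still told the ventricles apart when load and side were crossed. The comparison set the 3 VO LV against the 3 sham RV libraries, 6 of the 12 libraries of the series, over all genes of the table. The model behind its p values was fitted to all 12 libraries. Sprague-Dawley (SD) rats received a fistula between the abdominal aorta and the inferior vena cava (VO) or a sham operation on postnatal day 1 (P1), and RNA of the LV or RV free wall was sequenced on postnatal day 7 (P7). The other 6 libraries, 3 of sham LV and 3 of VO RV, give the crossed comparison with the load on the other side. The fistula was made to load both ventricles, so VO LV and sham RV differ in side and in load at once. How many animals went into a library is not given in the sources used here, so the p values measure the spread between libraries, which may be technical in part.

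The LV and RV arise from different fields of heart precursors, and the LV descends mainly from the first. After birth the LV pumps against systemic pressure while the load of the RV falls, and the walls grow apart in mass and in metabolism. Hand1 encodes a basic helix-loop-helix transcription factor known for its left-sided expression in the developing ventricles. Nppb encodes B-type natriuretic peptide, a hormone released by cardiomyocytes under stretch that promotes the excretion of salt and water and relaxes vessels.

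The libraries held 14121713 to 16871371 reads on genes, and mitochondrial transcripts took 17.3% to 21.6% of them in sham RV and 17.4% to 20.5% in VO LV. Across the 13910 genes tested, Pearson's r between a sham RV and a VO LV library was 0.969 to 0.977 (9 pairs), beside 0.969 to 0.974 (3 pairs) among the sham RV libraries and 0.977 to 0.980 (3 pairs) among the VO LV libraries. The 7 ventricular cardiomyocyte markers of the table summed to between 20400 and 23900 FPKM in sham RV and between 24700 and 27100 FPKM in VO LV. The libraries differed in Y-linked transcripts, which summed to 64.9, 62.4 and 0.191 FPKM in sham RV replicates 1, 2 and 3 and to between 0.266 and 0.351 FPKM in VO LV. The groups are therefore not balanced in these transcripts, and for sham RV replicates 1 and 2 against VO LV their part in a difference cannot be told apart from that of the group. Sham RV replicate 1 stood apart in atrial genes, with 97.7 FPKM of Sln (sarcolipin of the atrial calcium pump) against 0.236 and 0.678 in the other two.

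Few genes separated the overloaded LV from the sham RV. A differentially expressed gene (DEG) needed a fold change over 1.3 and a Benjamini-Hochberg adjusted p under 0.05 from a limma model of log2(FPKM + 0.5) over all 4 groups. By this rule 2 of 13910 genes were DEGs (0.0144%), Hand1 and Nppb, and both were higher in VO LV. At an unadjusted p under 0.05 and the same fold, 454 genes differed (3.26%), of which 212 were higher (1.52%) and 242 lower (1.74%) in VO LV. The median absolute log2 fold change over all tested genes was 0.101, and its median standard error was 0.156. Between the 2 sham ventricles 536 genes were DEGs (3.85%), and the median absolute log2 fold change was 0.215. The 3 VO LV values lay wholly above or below the 3 sham RV values in 1750 of the 13910 genes (12.6%), and in 172 of the 212 higher (81.1%) and 203 of the 242 lower genes (83.9%).

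**Figure D1:**
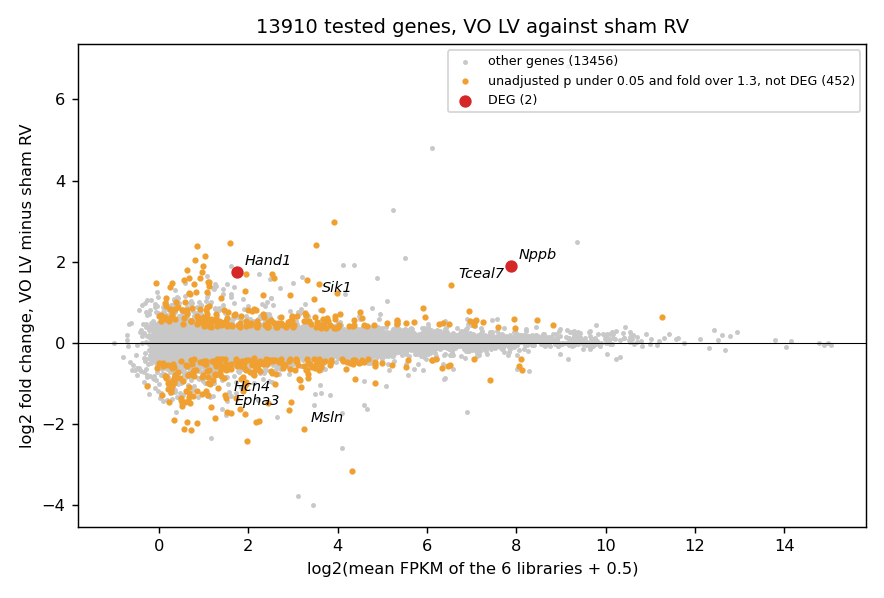
Each point is 1 of 13910 genes, plotted as the log2 fold change of VO LV against sham RV over the log2 mean FPKM of the 6 libraries. The 2 DEGs, Hand1 and Nppb (red), lie above 0, and the rest of the 454 genes with an unadjusted p under 0.05 and a fold change over 1.3 (orange) lie on both sides.

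Hand1 (ENSRNOG00000002582, chromosome 10, 43250745 to 43253296, minus strand in the deposited table, whose genome build is not given in the sources used here) was at 0.802, 1.13 and 1.21 FPKM in sham RV. In VO LV it was at 5.21, 4.10 and 4.71 FPKM, from 72 to 89 reads per library against 14 to 19 in sham RV. Every VO LV value lay above every sham RV value. The log2 fold change was 1.75 (SE 0.18, limma adjusted p = 0.0132), a 3.35-fold difference with a 95% interval of 2.54 to 4.43 on the log2(FPKM + 0.5) scale, which understates changes of low genes. Voom on the recovered reads gave 2.15 (adjusted p = 0.0254). Sham LV held 2.58, 2.10 and 3.48 FPKM and VO RV 0.318, 0.316 and 0.345, so the order of the group means was VO LV, sham LV, sham RV and VO RV, with no overlap between neighbours. VO LV did not pass against sham LV (0.70, adjusted p = 0.0715), nor VO RV against sham RV (−0.89, adjusted p = 0.482).

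Nppb (ENSRNOG00000008141, chromosome 5, 164796185 to 164797531, plus strand in the same table) was at 130, 67.1 and 109 FPKM in sham RV. In VO LV it reached 357, 325 and 427 FPKM. The lowest VO LV library, at 325 FPKM, lay well above the highest sham RV library, at 130. The log2 fold change was 1.90 (SE 0.23, limma adjusted p = 0.0233), a 3.72-fold difference with a 95% interval of 2.64 to 5.25. Sham LV held 211, 240 and 229 FPKM and VO RV 160, 226 and 147, so both lay between the 2 groups compared and overlapped with each other. With 3 libraries against 3, the exact two-sided permutation test gave p = 0.10 for Hand1 and for Nppb, the smallest it can give. Of the genes that did not pass, Bok came nearest (adjusted p = 0.0506), and it passed in 11 of 31 alternatives, among them voom (0.0254) and quantile normalization (0.0327).

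Neither call held in every setting. The call of Hand1 was lost without sham RV replicate 3 (adjusted p = 0.0549), VO LV replicate 1 (0.158) or VO LV replicate 2 (0.0659), at log2 fold changes of 1.63 to 1.83 over all libraries left out in turn. That of Nppb was lost without any 1 of sham LV replicates 1 and 3, sham RV replicate 3 and VO LV replicates 1, 2 and 3 (adjusted p 0.0618 to 0.158), at 1.62 to 2.09. With a covariate for the Y-linked transcripts, Hand1 was at 1.59 (adjusted p = 0.147) and Nppb at 1.75 (0.297), and neither passed. With only the 7 libraries whose Y-linked transcripts were near 0, which leaves 1 sham RV library, they were at 1.59 and 1.74. That sham RV library is assumed to vary like the other groups, and the adjusted p of 0.446 for both rests on this.

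**Figure D2:**
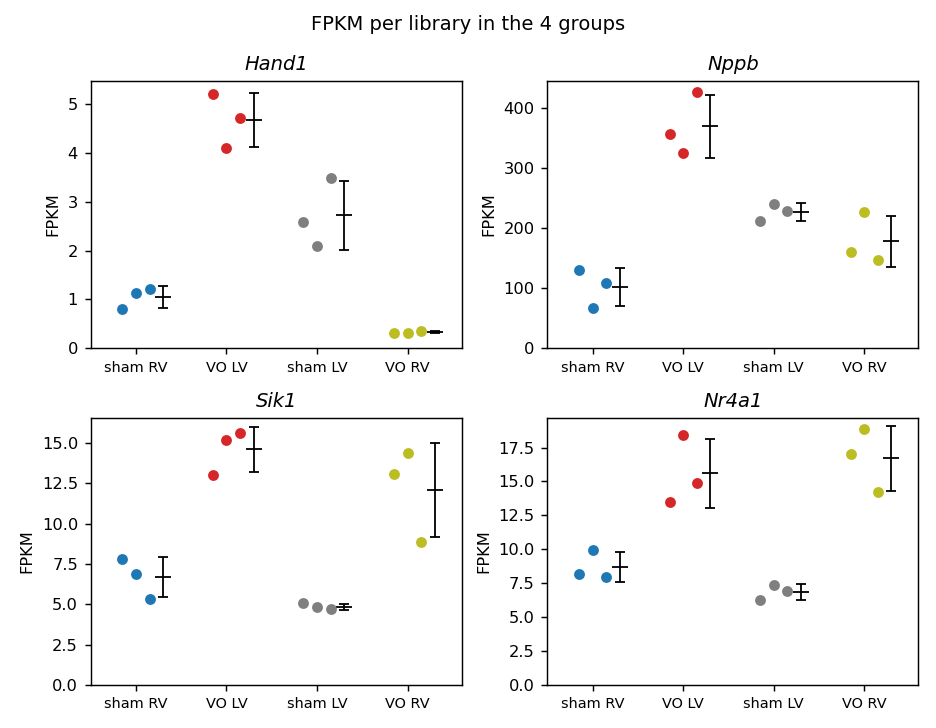
Each point is the FPKM of 1 library in 1 of 4 groups, with the mean and SD of 3 libraries in black at its right, for Hand1, Nppb, Sik1 and Nr4a1. Hand1 is higher in both LV groups than in both RV groups, Nppb is highest in VO LV and lowest in sham RV, and Sik1 and Nr4a1 are higher in both VO groups than in both sham groups.

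The 250 bases before the transcription start of both genes are shown because these are the 2 genes that told the walls apart, taken from RefSeq on the GRCr8 build and written 5′ to 3′ along the gene. The Nppb sequence lies at chr5:163699758-163700007, plus strand, and capitals mark GATAA, the core bound by GATA factors such as cardiac Gata4, and CATTCC (here read on the other strand as GGAATG), the M-CAT element bound by TEAD factors. It holds GATAA 3 times, beginning 120, 109 and 57 bases before the start, and CATTCC once, beginning 131 bases before it. The Hand1 sequence lies at chr10:42509685-42509934, minus strand, and capitals mark TATAAA, read on the gene's strand only, which begins 121 bases before the start.
Nppb: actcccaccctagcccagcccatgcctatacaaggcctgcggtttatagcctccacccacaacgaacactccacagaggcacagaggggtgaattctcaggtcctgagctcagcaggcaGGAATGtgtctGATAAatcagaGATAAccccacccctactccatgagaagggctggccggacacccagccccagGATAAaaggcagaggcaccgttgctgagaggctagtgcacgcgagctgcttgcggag
Hand1: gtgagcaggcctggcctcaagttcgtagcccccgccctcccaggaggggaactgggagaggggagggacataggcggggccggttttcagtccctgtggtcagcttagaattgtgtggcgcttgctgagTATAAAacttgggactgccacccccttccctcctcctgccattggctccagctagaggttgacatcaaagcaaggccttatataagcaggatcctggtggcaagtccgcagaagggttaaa
Of 33469 promoter windows of the same length, 23.5% held GATAA and 12.1% held CATTCC on either strand, and 8.06% held TATAAA on the gene's strand. Hand1 held neither GATAA nor CATTCC in this window. Gata4 itself was at 77.3, 82.1 and 64.0 FPKM in sham RV and 68.3, 74.3 and 75.9 in VO LV (log2 fold change −0.02, SE 0.15), and these values overlapped.

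On the log2 scale the comparison is the sum of 2 parts, the mean of LV minus RV over both treatments (ventricle part) and the mean of VO minus sham over both ventricles (load part). Hand1 had a ventricle part of 1.84 (adjusted p = 0.000198) and a load part of −0.10. That load part averages estimates of opposite sign, positive in the LV and negative in the RV (LV minus RV response 1.6). Nppb had both, with a ventricle part of 1.13 (adjusted p = 0.0262) and a load part of 0.76, which did not pass (adjusted p = 0.574). The ventricle part was called in 12 genes (0.0863%) and the load part in 2 genes (0.0144%). Of the 454 genes with an unadjusted p under 0.05 and a fold over 1.3 in VO LV against sham RV, 311 (68.5%) had an unadjusted p under 0.05 in the ventricle part and 96 (21.1%) in the load part, against 1482 (10.7%) and 627 (4.51%) of all tested genes. The 454 were picked on the sum of these parts, which raises both shares. The third part of the design, how far the LV response to VO exceeded that of the RV, cancels in VO LV against sham RV. It was called in 583 genes (4.19%).

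The crossed comparison, sham LV against VO RV, shares no library with VO LV against sham RV and puts the load on the RV. Both come from 1 model, so their p values share an estimate of the spread over all 12 libraries and are not independent. The crossed comparison called 5 genes (0.0359%), and 0 when fitted to its own 6 libraries alone. Hand1 was called in both comparisons, at 1.94 in the crossed one (adjusted p = 0.00450), and it was the 1 DEG of VO LV against VO RV (2.64, adjusted p = 0.000171, 0.00719% of genes). Nppb was at 0.37 in the crossed comparison (adjusted p = 0.531). VO RV replicate 2, which enters the crossed comparison and the parts, held 4650 FPKM of atrial markers against 391 and 313 in the other VO RV libraries. Without it 6 genes were called in the crossed comparison, and its share in the ventricle parts of single genes was not tested. Of the 454 genes above, 332 (73.1%) had the same sign in the crossed comparison, against 7689 of all 13910 genes (55.3%), and 137 also had an unadjusted p under 0.05 and a fold over 1.3 in the same direction. These 137 are 30.2% of the 454 and 12.9% of the 1058 genes of the crossed comparison (7.61% of all tested), and 18 genes (3.96% and 1.70%) met both thresholds in opposite directions.

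**Figure D3:**
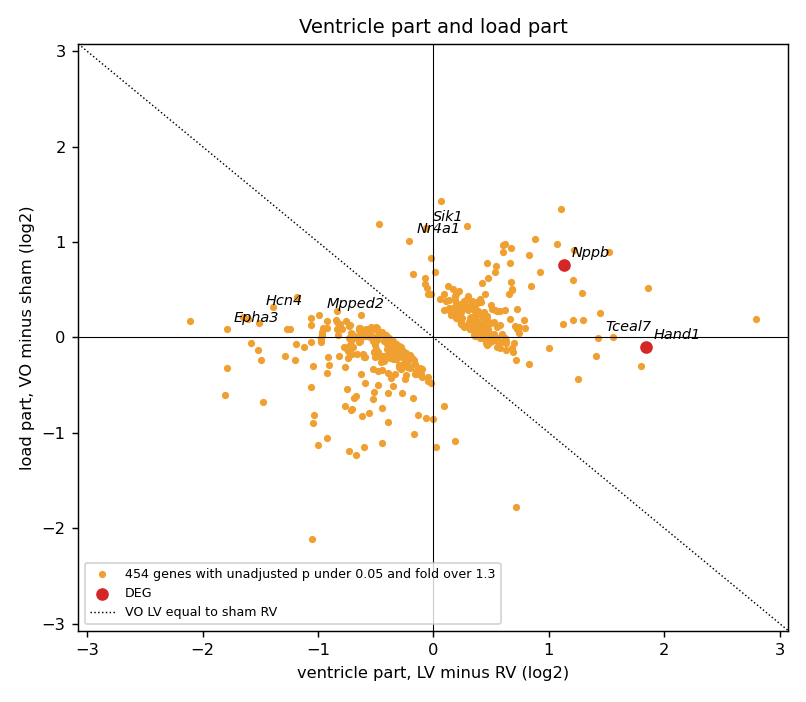
Each point is 1 of the 454 genes with an unadjusted p under 0.05 and a fold change over 1.3 in VO LV against sham RV, plotted as its load part over its ventricle part, both in log2 units. Hand1 and Tceal7 lie near a load part of 0, Sik1 and Nr4a1 near a ventricle part of 0, and Nppb is positive in both; the dotted line marks equal levels in VO LV and sham RV.

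Of the genes called in the ventricle part, 10 besides Hand1 and Nppb did not pass in VO LV against sham RV. Tceal7 (transcription elongation factor A like 7) was at 50.5, 51.6 and 46.8 FPKM in sham RV and 146, 120 and 137 in VO LV, with a ventricle part of 1.43 and a load part of −0.01. Its log2 fold change was 1.43 (SE 0.23, adjusted p = 0.148), and the groups did not overlap. Hcn4, the pacemaker channel subunit of the sinus node, was at 4.06, 3.01 and 3.52 FPKM in sham RV against 1.15, 0.513 and 1.76 in VO LV (ventricle part −1.51). Epha3, an ephrin receptor, was at 4.80, 3.98 and 2.64 FPKM against 0.291, 0.587 and 2.02 (ventricle part −1.79). Mgp, the inhibitor of calcification matrix Gla protein, was at 330, 317 and 383 FPKM against 193, 229 and 223 (ventricle part −0.83). All 3 of these were lower in VO LV without overlap, and none passed (adjusted p 0.350 to 0.693). The others were Bok, Ehd1, Mpped2, Ctnnbl1, Agr2 and a U6 small RNA, whose many near-identical copies make its reads uncertain.

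The 2 genes of the load part, Sik1 and Nr4a1, are both immediate early genes. The load part sets 6 VO against 6 sham libraries, of which 1 and 4 held Y-linked transcripts, and the part of this imbalance in it was not tested. Sik1, a salt-inducible kinase, was at 7.81, 6.90 and 5.33 FPKM in sham RV and 13, 15.2 and 15.6 in VO LV, with a load part of 1.15 (adjusted p = 0.00888) and a ventricle part of −0.06. Nr4a1, an orphan nuclear receptor, was at 8.17, 9.96 and 7.94 FPKM against 13.5, 18.4 and 14.9, with a load part of 1.01 (adjusted p = 0.00711) and a ventricle part of −0.21. The groups did not overlap in either gene. In VO LV against sham RV the log2 fold changes were 1.09 (SE 0.18, adjusted p = 0.148) and 0.81 (SE 0.14, adjusted p = 0.219), which did not pass. Sik1 passed in 3 of 31 alternatives (array weights, the atrial covariate and without VO RV replicate 3), and Nr4a1 in 0. With the load on the RV the sign turned, to −1.21 for Sik1 (adjusted p = 0.0511) and to −1.22 for Nr4a1, which was called (adjusted p = 0.0178).

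The promoters of Sik1 (chr20:9958647-9958896, minus strand) and Nr4a1 (chr7:134259888-134260137, plus strand) are shown because these 2 genes moved together with load. They are 250 bases before the start on GRCr8 from RefSeq, and capitals mark TGACG or its reverse complement CGTCA, the core of the cyclic AMP response element bound by CREB.
Sik1: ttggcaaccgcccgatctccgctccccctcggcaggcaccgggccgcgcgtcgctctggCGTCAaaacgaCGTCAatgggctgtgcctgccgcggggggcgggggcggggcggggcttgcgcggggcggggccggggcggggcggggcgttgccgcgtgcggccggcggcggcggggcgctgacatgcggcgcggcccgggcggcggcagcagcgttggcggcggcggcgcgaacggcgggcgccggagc
Nr4a1: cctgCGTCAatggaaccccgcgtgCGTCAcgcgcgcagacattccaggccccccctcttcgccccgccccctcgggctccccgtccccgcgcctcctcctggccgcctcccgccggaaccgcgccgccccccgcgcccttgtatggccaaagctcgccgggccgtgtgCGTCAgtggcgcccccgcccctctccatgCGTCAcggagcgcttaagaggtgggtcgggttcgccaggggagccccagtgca
Sik1 held this core 2 times, beginning 191 and 180 bases before the start, and Nr4a1 held it 4 times, beginning 246, 226, 82 and 53 bases before it. Of all windows, 18.2% held it at least once on either strand, and it was absent from those of Hand1 and Nppb. A match describes the letters only.

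The list of 31 immediate early genes tested held 0 DEGs by limma. It had 3 members higher in VO LV at an unadjusted p under 0.05 and a fold over 1.3 (Sik1, Nr4a1 and Gadd45g; 1.52% of all genes were), 0 lower, and a median log2 fold change of 0.24, beside 0.00 for all tested genes. Gadd45g, a growth arrest gene, was at 34.3, 26.0 and 36.7 FPKM in sham RV and 51.5, 42.3 and 47.6 in VO LV. In all 26 of 31 members had a positive sign, as had 7025 of the 13910 genes tested. Over the list the median load part was 0.20 and the median ventricle part −0.06, and leaving out 1 library at a time gave medians of 0.16 to 0.28. Ppp1r15a, a stress-induced phosphatase subunit outside this list, was called in the crossed comparison (−0.80) and was at 0.23 (SE 0.11) here.

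The chamber identity list holds mainly transcription factors that pattern the heart, besides the ligand Bmp10 and the muscle regulator Smyd1. In all 29 of its members were tested. Hand1 was its 1 DEG, and at the unadjusted thresholds Irx1 was also higher and Meis2 also lower in VO LV (1.52% and 1.74% of all genes were). Irx1, an Iroquois factor, was at 1.24, 0.330 and 0.517 FPKM in sham RV and 1.87, 1.18 and 4.57 in VO LV, and these overlapped. Meis2, a TALE homeobox factor, was at 14.5, 14.1 and 14.3 FPKM against 7.97, 9.08 and 11.4, with no overlap (log2 fold change −0.58, SE 0.21, adjusted p = 0.881). The core cardiac factors were close to equal. Nkx2-5 differed by 0.05 (95% interval −0.21 to 0.32), Hand2, the paralog of Hand1 linked to the right ventricle, by 0.08 (−0.38 to 0.54), Hey2 by 0.03 (−0.49 to 0.54) and Irx4 by 0.14 (−0.26 to 0.54). The intervals were wider for Tbx5 (−1.11 to 0.49) and Tbx20 (−0.97 to 1.16). Sizes within any of these intervals were not detectable with these libraries. The median of the list was 0.01, and −0.08 to 0.08 with 1 library left out.

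Within the natriuretic peptide and stretch list (20 tested) Nppb was the 1 DEG, and 6 members were higher and 2 lower at the unadjusted thresholds, which 1.52% and 1.74% of all genes met. The higher ones were Nppb, Ankrd23, Acta1, Csrp3, Gdf15 and Fhl1. Acta1, the skeletal alpha-actin that hearts re-express under load, was at 1540, 1940 and 2260 FPKM in sham RV and 2980, 2640 and 3270 in VO LV (0.65, SE 0.21, adjusted p = 0.792). Csrp3, the muscle LIM protein of the Z-disc, was at 324, 356 and 190 FPKM against 441, 371 and 444. The 2 lower ones act on the peptides themselves. Corin, the protease that activates the atrial peptide, was at 6.92, 5.95 and 8.66 FPKM in sham RV and 3.57, 2.97 and 5.83 in VO LV (−0.76, SE 0.34). Npr3, the clearance receptor of natriuretic peptides, was at 12.7, 8.86 and 8.96 FPKM against 4.33, 0.914 and 8.06 (−1.44, SE 0.57). Their adjusted p values were 1.00 and 0.910, so neither passed. Npr1, the receptor that signals for both cardiac peptides, differed by 0.16 (SE 0.16), and the load-responsive Ankrd1 by 0.05 (SE 0.14).

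Nppa, which encodes the atrial peptide and lies beside Nppb in the genome, was read after its values had been seen. It was at 625, 64.2 and 133 FPKM in sham RV and 1070, 610 and 1420 in VO LV. Sham RV replicate 1 reached the lowest VO LV library, so the groups overlapped, and the log2 fold change of 2.48 had an SE of 1.19 (adjusted p = 1.00). Without sham RV replicate 1 it was 3.40 (adjusted p = 1.00). The same library held the atrial Bmp10 at 12.6 FPKM, against 0.0531 and 0.152 in the other sham RV libraries and at most 0.133 in VO LV, and Myl7, the atrial light chain, at 138 FPKM against 21.4 and 31.0. The 7 atrial markers listed summed to 1150, 297 and 384 FPKM in sham RV and to between 952 and 1800 in VO LV. Nppa made up most of each VO LV sum. Of the 7 markers 3 had a positive sign, and their median log2 fold change was −0.37 (−0.47 to −0.05 with 1 library left out). With a covariate for these markers, which include Nppa, 7 genes were called, among them Hand1, Nppb and Nppa itself (2.76, adjusted p = 0.00376).

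Besides these, the genes with the smallest p among protein-coding genes over 1 FPKM whose groups did not overlap were read, and none passed. On the higher side were Bok, Ehd1, Plin3, Hid1, Ckb, Slc16a3 and Aif1l, with log2 fold changes of 0.50 to 0.86. Bok, a BCL-2 family member of the cell death pathway, was at 35.9, 43.0 and 47.8 FPKM in sham RV and 73.2, 80.1 and 75.5 in VO LV (0.86, SE 0.11, adjusted p = 0.0506). Ehd1, which recycles endocytosed membrane, was at 68.0, 69.2 and 65.9 FPKM against 99.8, 92.2 and 95.2 (0.50, SE 0.08, adjusted p = 0.148). Ckb, the brain form of creatine kinase, was at 94.5, 113 and 120 FPKM against 165, 144 and 165. Slc16a3, the lactate exporter MCT4, was at 10.7, 11.1 and 8.79 FPKM against 16.5, 15.0 and 15.8.

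On the lower side were Msln, Hcn4, Epha3, Mpped2, Hpgds, Kcnn4, MGC94199, Triqk, Klhl13, Asap3, Fbxw7 and Nuak1, with log2 fold changes of −2.15 to −0.40. Hpgds, a prostaglandin D synthase, was at 1.45, 1.38 and 1.61 FPKM in sham RV and 0.633, 0.616 and 0.699 in VO LV. Mpped2, a metallophosphoesterase, was at 13.2, 11.3 and 12.3 FPKM against 7.12, 6.21 and 7.79, and it was called in the crossed comparison in the same direction (−1.22). Asap3, a regulator of the small GTPase Arf, was at 2.84, 2.36 and 2.90 FPKM against 1.55, 1.98 and 1.43. Fbxw7, a substrate receptor of a ubiquitin ligase, was at 6.62, 7.00 and 7.28 FPKM against 3.99, 5.08 and 5.67. No overlap was a condition of this choice, and the adjusted p values of the lower genes ran from 0.344 upward.

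The study measured the insulin receptor and the thyroid hormone receptor alpha as RNA and as protein. It reported smaller amounts of both receptors in sham LV than sham RV. With VO both were reported to rise in the LV and to fall in the RV. The acyl-CoA synthetase of fatty acid activation was measured as protein, with more of it reported in the RV under VO. These contrasts differ from VO LV against sham RV, in which the RNA of none of these 3 genes told the groups apart. Insr was at 12.3, 10.6 and 9.55 FPKM in sham RV and 8.55, 10.9 and 12.4 in VO LV, a ratio of 0.979 with a 95% interval of 0.778 to 1.23. Thra was at 53.1, 46.3 and 46.0 FPKM against 47.5, 47.4 and 46.4 (ratio 0.975, 0.842 to 1.13). Acsl1 was at 160, 175 and 147 FPKM against 136, 145 and 165 (ratio 0.924, 0.755 to 1.13). All 3 overlapped between the groups. The thyroid hormone list (24 tested) held 0 DEGs by limma and 0 genes at the unadjusted thresholds, with a median of −0.07, which turned to 0.03 without sham RV replicate 1.

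In the insulin and insulin-like growth factor (IGF) list (45 tested) no DEG was called by limma, and 1 member was higher and 3 lower at the unadjusted thresholds (1.52% and 1.74% of all genes). Of the lower ones, Igf2, the fetal growth factor, was at 122, 89.6 and 104 FPKM in sham RV and 76.6, 54.1 and 84.8 in VO LV (−0.56, SE 0.21). The others were the IGF binding proteins Igfbp2, at 2.93, 1.93 and 3.84 FPKM against 1.06, 1.51 and 0.641 (−1.11, SE 0.29), and Igfbp5, at 105, 97.7 and 88.1 FPKM against 66.5, 48.7 and 78.3 (−0.61, SE 0.18). None of the 3 overlapped between the groups, and none passed (adjusted p 0.693 to 0.882). Of the other IGF members, none of which passed, Igf1 was at −0.06, the receptors Igf1r and Igf2r at −0.07 and 0.06, and the binding proteins Igfbp3, Igfbp4, Igfbp6 and Igfbp7 at −0.14, −0.01, −0.42 and 0.17. The higher one was Irs2, the adaptor below the insulin receptor (0.71, SE 0.28), which overlapped and had a load part of 1.18 and a ventricle part of −0.47.

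In the transforming growth factor beta (TGF-beta) and bone morphogenetic protein list (33 tested), 4 members were lower (1.74% of all genes) and 0 higher at the unadjusted thresholds, no DEG was called by limma, and the median was −0.15. They were ligands and their binding partners. Inhba, the activin A subunit, was at 2.73, 2.73 and 1.40 FPKM in sham RV and 0.533, 0.495 and 0.895 in VO LV. Tgfb3, a TGF-beta ligand, was at 18.3, 15.8 and 15.4 FPKM against 10.6, 11.0 and 11.8. The latent binding proteins Ltbp1 and Ltbp3 were at −0.67 (SE 0.28) and −0.47 (SE 0.19). None of the 4 overlapped, and without sham RV replicate 1 the median of the list was −0.05.

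Of the Wnt list (32 tested) 5 members were lower and 1 higher at the unadjusted thresholds (1.74% and 1.52% of all genes), with no DEG by limma. The ligands Wnt2 and Wnt9a and the agonist Rspo1 were lower (−0.93, −0.52 and −0.83), as was Axin2, a feedback target of the pathway, at 0.911, 1.09 and 1.05 FPKM in sham RV and 0.729, 0.453 and 0.382 in VO LV. Dkk3, a secreted member of the list that is also among the atrial markers used here, was lower (−0.42). The secreted inhibitor Sfrp1 was higher (0.56). The median was −0.09 and turned to 0.01 without sham RV replicate 1, and the tests of single genes did not pass (adjusted p 0.693 to 0.882).

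The collagen list (32 tested) had 3 members lower (1.74% of all genes) and 0 higher at the unadjusted thresholds and a median of −0.17. These were Col4a4 (−0.54) and Col6a6 (−0.52), which overlapped between the groups, and Col16a1 (−0.52), which did not. The matrix and remodeling list (34 tested) had 3 lower (Ogn, Postn and Dcn), 1 higher (Loxl4) and a median of −0.22. Postn, the matricellular protein periostin, was at 371, 313 and 273 FPKM in sham RV and 226, 168 and 251 in VO LV (−0.57, SE 0.25). Col3a1, the alpha chain of type III collagen, did not pass and was at 1720, 1270 and 1290 FPKM against 1160, 988 and 1190 (−0.34, SE 0.20). Both were without overlap, no member of either list was a DEG by limma, and without sham RV replicate 1 the medians were −0.02 and −0.11.

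Of 10 fibroblast markers tested, 6 are members of the collagen or matrix list and so are counted there too. Of the 10, 0 had a positive sign, 8 were lower without overlap (6.06% of all genes were), 3 were lower at the unadjusted thresholds (1.74% of all genes were), and their summed FPKM was 2940 to 3810 in sham RV and 2170 to 2670 in VO LV. Of the 4 markers in neither list, 3 were lower without overlap, and their median was −0.36. Tcf21, the transcription factor of cardiac fibroblasts, was at 57.3, 49.4 and 53.3 FPKM against 41.9, 40.3 and 45.2. Pdgfra, a receptor they carry, was at 20.3, 14.7 and 14.1 FPKM against 10.7, 9.30 and 13. In bulk tissue, fewer cells of a type and less RNA per cell cannot be told apart, and the part of these markers in the results on matrix, TGF-beta, Wnt and IGF genes was not tested.

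Markers of the epicardium, the outer cell layer of the wall, were the most uneven of the cell type lists other than the Y-linked genes, with a median of −1.14 over 8 tested. Msln, Upk3b, Upk1b, Lrrn4 and Krt19 were lower without overlap (6.06% of all genes were). Wt1 was higher without overlap (0.26; 6.52% of all genes were), and Tbx18 (−0.29) and Aldh1a2 (0.17) overlapped. At the unadjusted thresholds 5 of the 8 were lower and 0 higher, against 1.74% and 1.52% of all genes. Msln (mesothelin) was at 12.1, 16.1 and 15.0 FPKM in sham RV and 6.66, 1.27 and 2.68 in VO LV (−2.11, SE 0.51, adjusted p = 0.612). Upk3b was at 2.65, 5.69 and 4.08 FPKM against 1.51, 0.304 and 1.03. The 8 markers summed to 42.0 to 52.4 FPKM in sham RV and 28.8 to 39.7 in VO LV, and the median was −1.28 to −0.93 after dropping any 1 library and −1.95 by voom. The part of these markers in the other results was not tested.

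Endothelial markers (12 tested) had 10 positive signs, a median of 0.16 and summed to 533 to 582 FPKM in sham RV and 579 to 655 in VO LV, with Erg, the endothelial ETS factor, at 12.7, 12.4 and 13.9 FPKM against 18.1, 16.8 and 16.3 (0.38, SE 0.10). Mural cell markers (9 tested) had 9 positive signs and a median of 0.16, which was 0.03 without VO LV replicate 2. Macrophage markers (14 tested) had a median of 0.04, and red blood cell markers summed to 1160 to 2300 FPKM against 1700 to 2480. Markers of fat summed to at most 0.153 FPKM in both groups, and those of lung to at most 3.61. Liver markers summed to 12.4 to 15.5 FPKM in sham RV and 17.6 to 19.3 in VO LV, of which Ttr (transthyretin) made up the most. Lymphocyte markers summed to 8.80 to 12.1 FPKM in sham RV and 9.40 to 12.3 in VO LV, skeletal muscle markers to 5.38 to 8.87 and 5.04 to 9.38, and Schwann cell and neuron markers to 8.57 to 13.5 and 9.57 to 15.4.

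**Figure D4:**
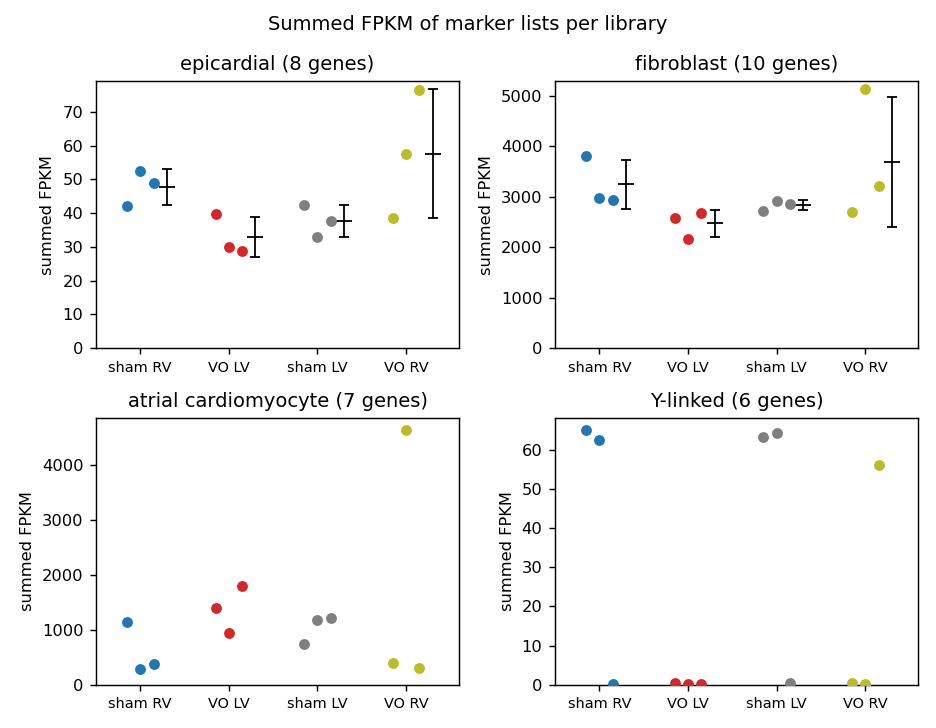
Each point is the summed FPKM of a marker list in 1 library of 1 of 4 groups, with the mean and SD of 3 libraries in black for the epicardial and fibroblast lists. Sham RV lies above VO LV in the epicardial and fibroblast lists, sham RV replicate 1 is the highest sham RV library in the atrial list, and Y-linked genes are near 0 in all VO LV libraries and in 1 sham RV library.

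Genes of growth and energy supply had small median differences. The cell cycle list (53 tested) had a median of 0.13 with 46 positive signs, a load part of 0.16 and a ventricle part of −0.03, and 1 member was higher at the unadjusted thresholds, near the share of all genes (1.52%). This was Rrm2, a subunit of the enzyme that makes deoxyribonucleotides, at 18.0, 15.2 and 17.9 FPKM in sham RV and 25.5, 19.0 and 25.6 in VO LV (0.44, SE 0.19). Without VO LV replicate 3 the median of the list was 0.06. The nuclear-encoded respiratory chain list (74 tested) had a median of 0.12 with 64 positive signs, and here the ventricle part was 0.18 and the load part −0.05. Its median was 0.07 without sham RV replicate 1, 0.05 under quantile normalization and 0.00, with 34 positive signs, in the 7 libraries low in Y-linked transcripts. The citrate cycle (23 tested) and glucose use (34 tested) had medians of 0.08, which were 0.03 and 0.05 without sham RV replicate 1. Hk2, the hexokinase that traps glucose in muscle, was at 6.62, 5.12 and 6.37 FPKM against 9.52, 8.72 and 11.6 (0.67, SE 0.25). In the fatty acid and ketone list (41 tested, median 0.05, and −0.02 without sham RV replicate 1), Oxct1, which activates ketone bodies, was at 79.2, 108 and 115 FPKM against 125, 134 and 179, and Bdh1, a ketone body dehydrogenase, at 1.12, 0.779 and 1.40 against 1.67, 2.16 and 2.59. At the unadjusted thresholds the glucose and fatty acid lists each had 2 higher, the respiratory chain and citrate cycle 0 (1.52% of all genes), and no list had a lower one. Higher without overlap were 7 cell cycle, 12 respiratory chain, 3 citrate cycle, 6 glucose and 4 fatty acid members (6.52% of all genes). Only the fatty acid list had members lower without overlap, 2 (6.06% of all genes). Rrm2, Hk2, Oxct1 and Bdh1 did not overlap between the groups, and no member of these lists was a DEG by limma.

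Contraction and conduction genes were near equal as groups. The sarcomere (38 tested), calcium cycling (38 tested) and channel lists (36 tested) had medians of 0.07 (−0.01 to 0.08 under the other scalings), −0.04 and 0.00. With 1 library left out these were 0.04 to 0.10, −0.08 to 0.01 and −0.03 to 0.05. Besides Hcn4, the channel subunits Scn2b (−0.82, SE 0.28) and Scn3b (0.45, SE 0.18) passed the unadjusted thresholds, which 1.74% of all genes met as lower and 1.52% as higher. Sln had the largest fold of the calcium list (−2.59, SE 2.27), which rested on sham RV replicate 1 and was −0.35 without it. The remaining lists had medians between −0.04 and 0.13, and none of their members was a DEG by limma. The smallest p among them belonged to Psmb7 of the proteasome (0.36, SE 0.09), Pde2a, a phosphodiesterase of cyclic nucleotides (0.31, SE 0.09), the ribosomal protein copy Rpl31l4, whose reads may be shared with its paralogs (0.55, SE 0.17), and Dbp, an output factor of the circadian clock (0.25, SE 0.08). Their adjusted p values were 0.612 to 0.756.

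**Figure D5:**
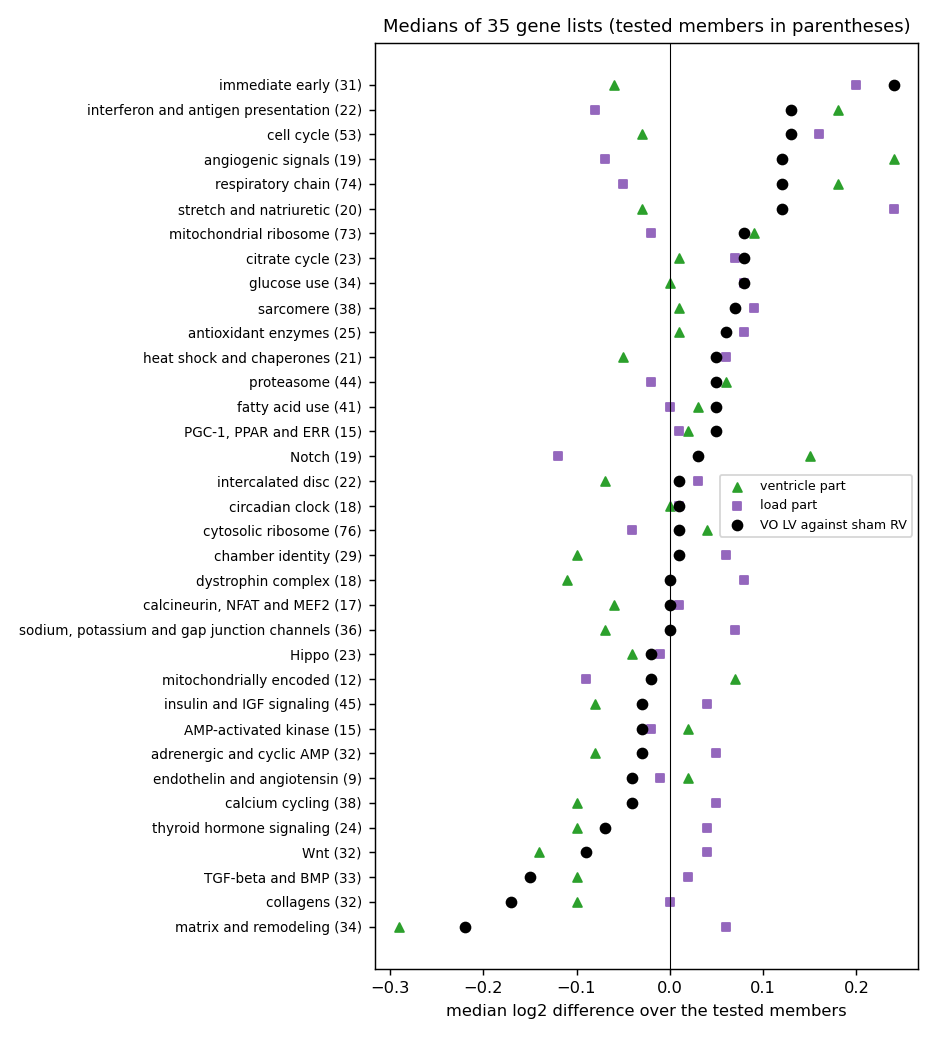
Each row is 1 of 35 gene lists, and symbols give the median log2 difference over its tested members for VO LV against sham RV (circle), the ventricle part (triangle) and the load part (square). Medians of VO LV against sham RV run from −0.22 for matrix and remodeling to 0.24 for immediate early genes; in the respiratory chain, angiogenic and interferon lists the ventricle part is the larger, and in the immediate early, cell cycle and stretch lists the load part.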

How the data were processed

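RNA of 12 libraries (1 μg, NEBNext Ultra kit) was sequenced, extracted with Trizol per the labels and with a PureLink kit per the study's methods; per the labels and the study's methods the authors removed adapter, poly-N and low-quality reads, aligned with HISAT2 2.0.5 and counted with featureCounts 1.5.0-p3. StringTie 1.3.3b, DESeq2 1.20.0 and GATK 3.7 also stand in the submitters' processing notes. The genome build, annotation and strand setting are not given in the sources used here. The authors deposited FPKM (fragments scaled by gene length and library depth) for 32545 genes, with gene lengths. Values under 200 reads fell within 0.02 of whole reads, so reads were recovered for the read totals and for voom.

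FPKM were divided by median-ratio size factors. The 13910 genes with a mean of at least 0.5 FPKM over the 12 libraries were tested as log2(FPKM + 0.5). The test was limma 3.58.1 (R 4.3.3) in 1 model of 4 groups with an intensity trend and Benjamini-Hochberg adjustment. On simulated counts it called 200 of 200 changed genes and 9 unchanged ones. The simulation did not hold the Y-linked and atrial differences between libraries, so it does not give the power in these data. Groups came from the labels. The members and gene lists were chosen with earlier results of these data known. Named genes were the DEGs, then by unadjusted p the protein-coding genes over 1 FPKM with a fold over 1.3 and no overlap, up to 12 a direction; the 2 members with the smallest p of each list; the whole chamber identity list; and Insr, Thra and Acsl1. Other list members, all cell type markers, Nppa and Sln, and genes called in the other contrasts, were picked after their values were seen. Alternatives changed scaling, pseudocount, filter, samples, block, eBayes, weights, unit, threshold or covariate, or left out a library. The fit with the 7 libraries low in Y-linked transcripts, and the test of how the LV response to VO differs from that of the RV, were added after the data were seen. Promoters are RefSeq's on GRCr8 and were matched by symbol for 4 of 4 genes; they share no coordinates with the table. For 1 of the genes counted in the closing section the value is not reported here.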

Additional observations from a re-analysis of the deposited data

Results flagged for a closer look

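The response of the LV to VO minus that of the RV, the part of the design that cancels in VO LV against sham RV, differed from 0 in 16 of the 177 genes with tabulated values (limma interaction test chosen after the data were seen, adjusted p 0.0246 to 0.0497, 3 libraries a group). Over all tested genes 583 of 13910 (4.19%) were called, and the 177 were in part picked after their values were seen, so nothing is read from their share. Of cardiac transcription factors and the muscle regulator, the log2 difference was 2.73 for Tbx20, 2.68 for Smyd1, 1.60 for Hand1 and 0.86 for Gata5. Of sarcomere and Z-disc genes it was 1.24 for Xirp1, 1.02 for Myom2 and 0.86 for Nrap. Of metabolic regulators it was 1.34 for Ppargc1b, 1.26 for Insr, 0.94 for Acsl1 and 0.65 for Ppard. It was 1.53 for Wnt9a, 1.36 for Loxl4 and 0.72 for Nuak1, and −2.23 for the multi-copy U6. In VO LV against sham RV several of these genes were near 0, with Smyd1 at 0.01, Tbx20 at 0.09, Insr at −0.03 and Xirp1 at −0.06.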

How the results depend on the processing

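Over 33 alternatives the number of DEGs of VO LV against sham RV (2) became 4 with a pseudocount of 0.1, 3 with quantile normalization, a minimum of 1 FPKM, the 0.5 FPKM minimum over the 6 libraries, protein-coding genes only, voom or an adjusted p under 0.10, and 1 with only the 6 libraries compared (Tceal7) or without the eBayes trend. It was 11 with array weights (10 higher, 1 lower), 7 with the atrial covariate and 0 with the Y-linked covariate, which left 490 genes at an unadjusted p under 0.05 and a fold over 1.3. Leaving out 1 library gave 0 to 5, with 0 without sham RV replicate 3, VO LV replicate 1 or VO LV replicate 2 (377 to 518 genes at the unadjusted thresholds) and 5 without VO RV replicate 2. For sham LV against VO RV the number (5) became 1 with all genes above 0, with array weights or with the Y-linked covariate, 0 with 6 libraries only, 2 without the trend or with the libraries low in Y-linked transcripts only, 8 with voom and 17 at an adjusted p under 0.10, and 1 to 7 with 1 library left out. Genes called in both (1) became 0 with 6 libraries only, the Y-linked covariate or the libraries low in Y-linked transcripts, 2 with the atrial covariate, and 0 to 2 with 1 library left out. The cause was not tested. The log2 fold change of Hand1 was 1.47 to 2.15 and that of Nppb 1.62 to 2.09 over 31 alternatives, and they passed in 25 and 18 of them. Hand1 lost its call with 6 libraries only (adjusted p = 0.0720). Nppb lost it with the gene-length trend removed (0.0520), all genes above 0 (0.0534), 6 libraries only (0.251), no trend (0.0592) and the replicate number as a block (0.0660). No alternative turned the sign of Hand1 or Nppb; single genes were not refitted for the other contrasts.

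Libraries of 1 number did not deviate together (correlations −0.22 to 0.12), so the numbers were not taken to pair samples. The Y-linked sums match by number between sham LV and sham RV and differ between VO LV replicate 3 (0.296 FPKM) and VO RV replicate 3 (56.1 FPKM). With the replicate number as a block 2 genes were called (4 in the crossed comparison), and with treatment and number as a block by duplicateCorrelation 2 (5 in the crossed one; consensus correlation −0.144). With 3 libraries a group, low genes such as Hand1, at 14 to 19 reads in sham RV, carry counting error besides the spread between libraries.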
